A study of Mus musculus with 10 samples.

Results

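The genes of histone modifying enzymes were examined in cultured microglia of the mouse, the macrophages that live in the brain. Members were the protein-coding genes of the deposited table whose name starts with Kdm (lysine demethylases), Kmt or Setd (lysine methyltransferases and other SET domain proteins), Hdac or Sirt (deacetylases) or Kat (acetyltransferases), followed by a digit. This gave 59 of 28247 genes, namely 18 Kdm, 8 Kmt, 10 Hdac, 8 Setd, 8 Kat and 7 Sirt genes. All libraries came from wild-type cells, labelled as primary microglia, that had received amyloid-β oligomers, the aggregates of the peptide found in Alzheimer's disease plaques. A control group of 5 libraries was then transfected with a negative control mimic and a group of 5 with a miR-378a-3p mimic, a synthetic form of a microRNA that the study links to exercise and skeletal muscle in Alzheimer's disease mice. Poly(A) RNA was sequenced, and the comparison asks how this microRNA changes gene expression in amyloid-treated microglia. Cells without amyloid-β or without transfection were not analysed here, and the labels name no animal or culture behind a library, so that p-values measure the spread between libraries, which may be technical.

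Acetyltransferases add acetyl groups to histone lysines, which opens chromatin, and deacetylases of the Hdac and Sirt families remove them, the sirtuins by consuming NAD. Methyltransferases place methyl groups whose effect depends on the lysine: methylated H3K4 marks promoters and enhancers in use, H3K27 and H3K9 methylation mark silent chromatin, and demethylases reverse them. In macrophages these enzymes are known for setting how inflammatory and repair genes respond to a stimulus.

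Depth ran from 48707985 to 65069571 counts a library, where about 4 counts were taken as 1 read pair. Of 14 microglia markers 13 fell with the mimic and Cd68 rose. Their median log2 fold change was -1.23, and 8 fell at least 2-fold (57.1%, against 13.3% of all genes changed at least 2-fold). Cx3cr1 fell most, from 28.6 ± 1.84 to 0.475 ± 0.111 FPKM. The summed level of the 14 was 1128.1 to 1197.1 FPKM in control and 972 to 1008.4 FPKM in mimic libraries. Cd68, at means of 526 and 598 FPKM, was the largest part of that sum, which therefore understates the fall of the others. Tmem119, P2ry12 and C1qa, which define microglia in the brain, were low in control libraries, at means of 0.695, 1.49 and 0.496 FPKM. The 7 fibroblast markers summed to at most 0.0579 FPKM in every library other than mimic replicate 1, where they reached 3.65 FPKM, nearly all from Fn1. Of the other marker lists, 5 astrocyte markers in the table summed to 0.468 FPKM in mimic replicate 1, from Gja1 and Sox9, which were listed at 0 in every other library, and to at most 0.0587 FPKM elsewhere. The 4 of neurons reached 0.451 FPKM and the 6 of the oligodendrocyte lineage 0.852 FPKM. The 5 of endothelial cells and pericytes reached 11 FPKM through Flt1. Of 20 cell cycle markers 19 rose and 1 fell, with summed levels of 580 to 657 FPKM in control and 870 to 934 FPKM in mimic libraries. The part of these shifts in the results below was not tested, and in bulk RNA fewer cells of a type and less RNA per cell cannot be told apart.

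Most histone modifying enzyme genes changed with the mimic, in both directions alike and by small amounts. Of 59 members 56 had enough counts to be tested, and 46 of these passed an edgeR quasi-likelihood adjusted p of 0.05, 23 higher and 23 lower. That is 82.1% of those tested, against a background of 63.2% of 15916 genes, of which 31.7% were higher and 31.5% lower. Members were well expressed: 54 of those tested had a mean level of at least 1 FPKM, and 81.5% of these were called, against 72.2% of 11521 genes above that level. The median log2 fold change of the members was 0.003, and -0.0021 over all genes tested. Among called genes the median size of the change was 0.298 on the log2 scale for members and 0.488 for all genes. A single member, Hdac9, changed at least 2-fold, which is 1.79% of the members tested against 13.3% of all genes and 8.04% of those at 1 FPKM or more. At least 1.5-fold changes were found for 10 members (17.9%, against 26.5%). Without mimic replicate 1, the library with fibroblast and astrocyte marker reads, 24 members were higher and 21 lower. In 39 members (69.6%) the FPKM values of the groups did not overlap, against 52.2% of all genes. This share, the 1.5-fold share and the median size were set against all tested genes, low ones included. They were not compared with genes at 1 FPKM or more.

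**Figure D1:**
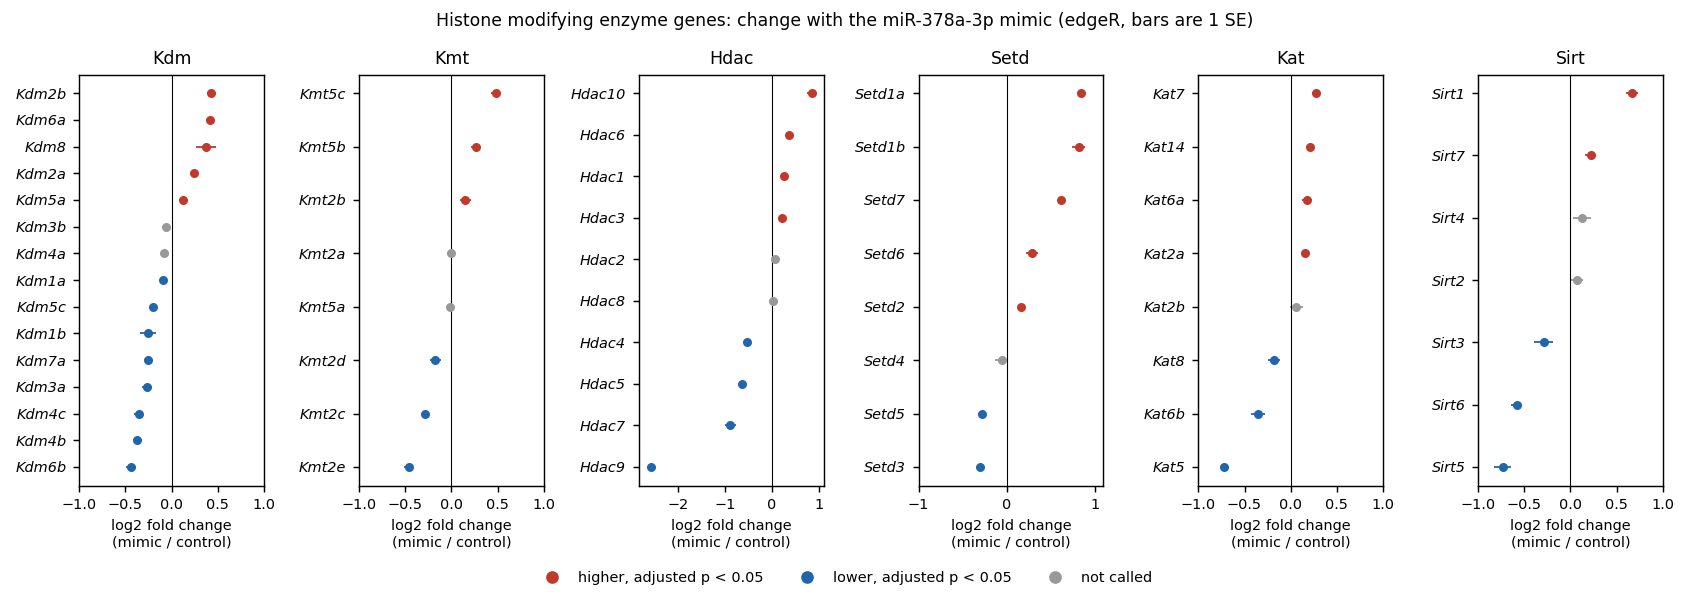
Log2 fold change of each tested member, mimic over control, on the x axis, by name prefix, with bars of 1 SE from edgeR; red points were called higher, blue lower and grey not called. Hdac9 lies at -2.58, beyond all others, and the remaining called members lie between -0.89 and 0.84; the x axes of the Hdac and Setd panels differ from the rest.

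The balance of directions differed in number among the prefixes, without a test of that difference. The share called ran from 71.4% of Sirt genes to 87.5% of Setd and of Kat genes, against 72.2% of all genes at 1 FPKM or more. Of 8 Setd genes 5 rose and 2 fell, with a median log2 fold change of 0.22. Of 15 tested Kdm genes 5 rose and 8 fell (median -0.092). Hdac genes split 4 to 4 of 10, Kmt genes 3 to 3 of 8, Kat genes 4 higher to 3 lower of 8 and Sirt genes 2 higher to 3 lower of 7, with medians of 0.040, -0.012, 0.11 and 0.070. The summed level of the Setd genes was 87.9 ± 2.13 FPKM in control and 110 ± 2.43 FPKM in mimic libraries (SD, n = 5 each). That of the Kdm genes was 135 ± 2.66 and 133 ± 4.51 FPKM. FPKM scaling sets the mimic libraries somewhat higher than the scaling behind the fold changes, so these sums lean towards a rise.

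Among the deacetylases, all 4 class IIa genes fell and both class IIb genes rose. Over all genes tested 31.5% were lower and 31.7% higher, and the difference between the classes was not tested. Class IIa enzymes (Hdac4, Hdac5, Hdac7 and Hdac9) shuttle between nucleus and cytoplasm and bind MEF2 transcription factors, while class IIb enzymes (Hdac6 and Hdac10) act largely in the cytoplasm, Hdac6 on tubulin and Hdac10 on polyamines. This grouping by role, like those below, was made after the values were seen. Hdac9 (ENSMUSG00000004698, build GRCm38 as for all coordinates here, chromosome 12, 34047580 to 34917095, minus strand) measured 2.85, 3.17, 2.78, 3.10 and 2.74 FPKM in control libraries and 0.58, 0.541, 0.491, 0.51 and 0.476 FPKM in mimic libraries. Every mimic library was far below every control library, and the log2 fold change was -2.58 (SE 0.07, edgeR adjusted p = 2.69e-13). Hdac5, the class IIa gene with the highest level, measured 12.9, 14.2, 14.3, 12.5 and 14.3 FPKM in control and 9.04, 8.72, 10.1, 9.27 and 9.5 FPKM in mimic libraries. The groups did not overlap, and its log2 fold change was -0.64 (SE 0.048, edgeR adjusted p = 1.53e-08). Hdac4 fell from 2.01 ± 0.113 to 1.49 ± 0.117 FPKM (SD, n = 5 each), changing by -0.52 on the log2 scale. Hdac7 fell from 0.718 ± 0.0872 to 0.412 ± 0.0354 FPKM, changing by -0.89 on the log2 scale, and was the lowest of the Hdac genes. The Hdac7 gene overlaps the more highly expressed Slc48a1 (16.8 and 18.6 FPKM) on the other strand, and whether counting used strand is not stated, so its value is uncertain.

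Hdac10 (ENSMUSG00000062906, chromosome 15, 89123307 to 89128700) measured 3.35, 3.45, 4.58, 3.89 and 4.11 FPKM in control and 7.77, 6.58, 6.84, 7.7 and 8.24 FPKM in mimic libraries. All mimic libraries were higher, with a change of 0.84 on the log2 scale (SE 0.0911, edgeR adjusted p = 8.85e-07). Hdac6 rose from 4.34 ± 0.365 to 5.94 ± 0.409 FPKM, changing by 0.36 on the log2 scale. The class I enzymes other than Hdac8 are nuclear and form the catalytic cores of the Sin3, NuRD, CoREST and NCoR corepressors. Hdac1, the deacetylase gene with the highest level, rose from 37.0 ± 0.926 to 47.0 ± 1.91 FPKM and Hdac3 from 16.2 ± 0.417 to 20.1 ± 0.567 FPKM, log2 fold changes of 0.26 and 0.22. Hdac1 shares sequence with the processed pseudogene Hdac1-ps, listed at 6.4 ± 0.552 and 8.15 ± 0.81 FPKM, so the split of reads between them is uncertain. Hdac2 (13.9 ± 0.488 and 15.5 ± 0.865 FPKM, edgeR adjusted p = 0.164) and Hdac8 (2.41 ± 0.273 and 2.59 ± 0.118 FPKM, adjusted p = 0.924) did not pass. Without mimic replicate 1, its lowest mimic library, Hdac2 was called higher (log2 fold change 0.11, edgeR adjusted p = 0.0221). It was also called higher under other processing, described in the last section.

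As a share of the summed FPKM of the 10 Hdac genes, class IIa was 18.8%, 20.8%, 20.4%, 19.2% and 20.2% in control and 10.7%, 9.97%, 11.6%, 10.4% and 10.7% in mimic libraries. Class IIb was 8.48 ± 0.542% in control and 12.1 ± 0.856% in mimic libraries, and class I 71.6 ± 1.13% and 77.2 ± 0.92% (SD, n = 5 each). Class IIa was thus the larger of the class II shares in every control library and the smaller in every mimic library other than replicate 3, where class IIa stood at 11.6% and class IIb at 11.1%.

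**Figure D2:**
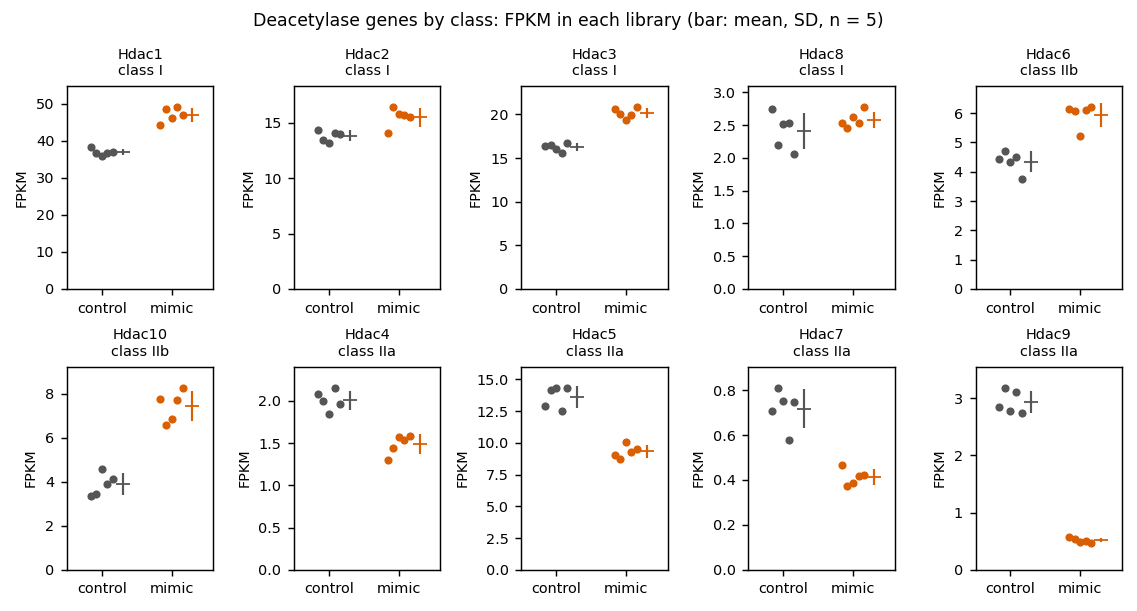
FPKM of each deacetylase gene in each library (y axis, from 0), control in grey and mimic in orange, with the mean and SD of 5 libraries beside the points. The 4 class IIa genes (Hdac4, Hdac5, Hdac7 and Hdac9) are lower in all mimic libraries, and Hdac1, Hdac3, Hdac6 and Hdac10 are higher; Hdac2 and Hdac8 overlap.

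The methyltransferases with the largest rises were Setd1a and Setd1b, the catalytic subunits of the SET1/COMPASS complexes, which place most trimethylation of H3K4 at promoters. Setd1a (ENSMUSG00000042308, chromosome 7, 127776670 to 127800122, plus strand) measured 7.94, 8.64, 8.00, 7.27 and 9.01 FPKM in control and 14.5, 15.7, 15.8, 16.1 and 16.1 FPKM in mimic libraries. The lowest mimic library was well above the highest control library, and the log2 fold change was 0.84 (SE 0.0503, edgeR adjusted p = 1.06e-09). Setd1b measured 1.02, 1.16, 1.27, 1.15 and 1.36 FPKM in control and 2.13, 2.3, 2.1, 2.33 and 2.31 FPKM in mimic libraries. Its groups did not overlap either, and its log2 fold change was 0.82 (SE 0.0744, edgeR adjusted p = 1.3e-07). Setd7, which monomethylates H3K4 and many other proteins, was the Setd gene with the highest level after the mimic. It measured 18.6, 19.4, 18.8, 19 and 19.8 FPKM in control and 30.1, 31.3, 28.8, 33.5 and 32.0 FPKM in mimic libraries, a change of 0.61 on the log2 scale (SE 0.0362, edgeR adjusted p = 9.7e-10).

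The Kmt2 genes encode the MLL methyltransferases, of which Kmt2a and Kmt2b act at promoters and Kmt2c and Kmt2d monomethylate H3K4 at enhancers. The enhancer pair fell, Kmt2c from 3.79 ± 0.134 to 3.31 ± 0.147 FPKM and Kmt2d from 4.52 ± 0.384 to 4.27 ± 0.261 FPKM (SD, n = 5 each), with log2 fold changes of -0.29 and -0.17. Kmt2b rose from 5.37 ± 0.528 to 6.35 ± 0.288 FPKM, changing by 0.15 on the log2 scale. Kmt2a did not pass (5.21 ± 0.345 and 5.53 ± 0.212 FPKM, edgeR adjusted p = 0.934).

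Of the enzymes acting on H4K20, whose methylation compacts chromatin, Kmt5b and Kmt5c, which add further methyl groups to a first, rose. Kmt5c measured 8.27, 8.58, 9.05, 7.89 and 8.96 FPKM in control and 12.6, 12.8, 13.2, 13.2 and 11.8 FPKM in mimic libraries. All mimic libraries were higher, with a change of 0.48 on the log2 scale (SE 0.049, edgeR adjusted p = 4.54e-07). Kmt5b rose from 2.58 ± 0.162 to 3.29 ± 0.218 FPKM. Kmt5a, which adds the first methyl group and had the highest level of the Kmt genes, did not pass (25.2 ± 1.69 and 26.4 ± 1.31 FPKM, edgeR adjusted p = 0.717). Setd2, the enzyme of H3K36 trimethylation, rose from 15.8 ± 0.584 to 18.8 ± 0.698 FPKM, changing by 0.16 on the log2 scale.

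The related genes Kmt2e and Setd5, whose proteins have little or no known methyltransferase activity on histones, both fell. Kmt2e fell from 7.35 ± 0.38 to 5.67 ± 0.451 FPKM and Setd5 from 6.63 ± 0.286 to 5.79 ± 0.203 FPKM, log2 fold changes of -0.46 and -0.29. Setd3, which methylates a histidine of actin, fell from 24.5 ± 0.713 to 21.1 ± 0.779 FPKM. Setd6, which methylates the NF-κB subunit RelA, rose from 10.8 ± 0.801 to 14.0 ± 1.19 FPKM, and Setd4 did not pass (1.64 ± 0.0772 and 1.68 ± 0.1 FPKM, edgeR adjusted p = 0.519).

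Among the demethylases of silent marks, Kdm6a rose and Kdm6b fell. Both remove H3K27 methylation, and Kdm6b, also called Jmjd3, is the one induced by inflammatory signals in macrophages. Kdm6a (ENSMUSG00000037369, chromosome X, 18162575 to 18279936) measured 6.09, 6.31, 5.94, 6.26 and 6.45 FPKM in control and 8.04, 9.03, 8.82, 9.39 and 8.86 FPKM in mimic libraries. Kdm6b (ENSMUSG00000018476, chromosome 11, 69398508 to 69413675) measured 7.10, 8.55, 8.71, 8.03 and 7.70 FPKM in control and 6.17, 6.11, 6.18, 6.72 and 6.31 FPKM in mimic libraries. The groups were apart for both genes, with log2 fold changes of 0.42 (SE 0.0411, edgeR adjusted p = 3.2e-07) and -0.44 (SE 0.0556, adjusted p = 4.97e-06). Kdm6a was below Kdm6b in every control library and above it in every mimic library.

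Of the 5 tested genes named Kdm3 or Kdm4, which remove H3K9 methylation, 3 fell and none rose. This share called, 60%, was below the 72.2% of genes at 1 FPKM or more. Jmjd1c, given below with the demethylases outside the Kdm names, was not counted here. Kdm4b fell from 11.8 ± 0.633 to 9.67 ± 0.353 FPKM, Kdm4c from 7.18 ± 0.337 to 5.97 ± 0.333 FPKM and Kdm3a from 10.3 ± 0.548 to 9.05 ± 0.736 FPKM (SD, n = 5 each), with log2 fold changes of -0.38, -0.36 and -0.27. Kdm3b (4.49 ± 0.289 and 4.59 ± 0.198 FPKM, edgeR adjusted p = 0.26) and Kdm4a (14.4 ± 0.168 and 14.5 ± 0.894 FPKM, adjusted p = 0.0919) did not pass. With control replicate 2, control replicate 5 or mimic replicate 4 left out, Kdm4a was called lower (log2 fold changes of -0.10, -0.10 and -0.12, edgeR adjusted p = 0.0484, 0.0426 and 0.0044). It was also called lower when only genes of at least 1 FPKM were kept (-0.093, edgeR adjusted p = 0.0416). Kdm7a, which acts on H3K9 and H3K27, fell from 6.05 ± 0.34 to 5.38 ± 0.287 FPKM. The FPKM values of the groups overlapped for Kdm3a and Kdm7a. The Kdm2 pair, which removes H3K36 methylation and, through Kdm2b, brings Polycomb proteins to CpG islands, rose. Kdm2b rose from 3.04 ± 0.168 to 4.35 ± 0.172 FPKM and Kdm2a from 5.98 ± 0.227 to 7.55 ± 0.432 FPKM, log2 fold changes of 0.43 and 0.24. Kdm8, whose protein has been described as a demethylase and as a hydroxylase, rose from 1.66 ± 0.148 to 2.29 ± 0.257 FPKM.

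Of the Kdm5 demethylases, which remove H3K4 methylation, 2 were tested, and 1 fell and 1 rose. Kdm5c, on chromosome X, had the highest level of the Kdm genes and fell from 28.3 ± 0.428 to 26.3 ± 1.09 FPKM, a change of -0.20 on the log2 scale (SE 0.0323, edgeR adjusted p = 6.71e-05). Kdm5a rose from 6.74 ± 0.373 to 7.80 ± 0.303 FPKM, changing by 0.12 on the log2 scale. Kdm5b, Kdm4d and Kdm5d were not tested. Kdm5d, on chromosome Y, had a count of 0 in all 10 libraries, which allows up to 3 read pairs, or 0.184 to 0.246 CPM (counting error only). Kdm5b and Kdm4d had at most 11 and 8 counts in a library. Kdm1a and Kdm1b, the flavin-dependent demethylases of H3K4, had log2 fold changes of -0.092 and -0.25, described with the least certain calls below.

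**Figure D3:**
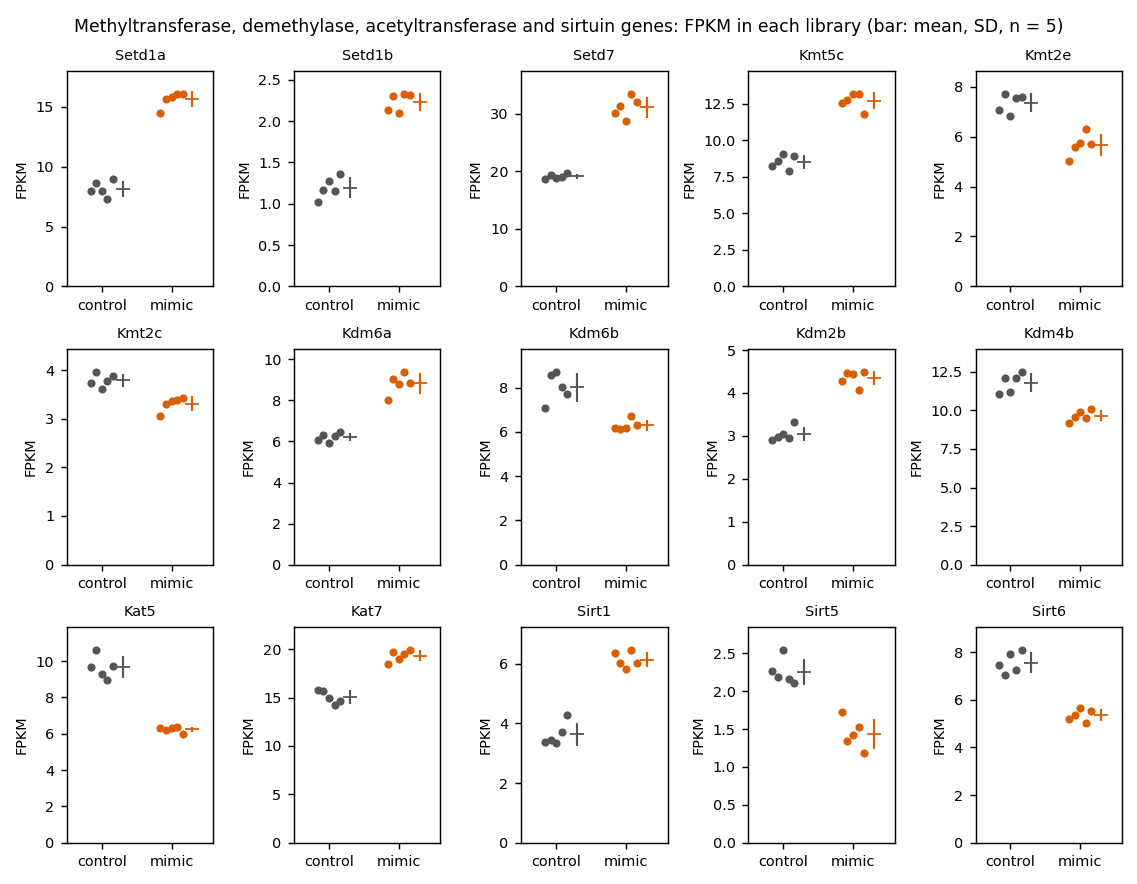
FPKM of 15 members in each library (y axis, from 0), control in grey and mimic in orange, with the mean and SD of 5 libraries beside the points. Setd1a, Setd1b, Setd7, Kmt5c, Kdm6a, Kdm2b, Kat7 and Sirt1 are higher in all mimic libraries, and Kmt2e, Kmt2c, Kdm6b, Kdm4b, Kat5, Sirt5 and Sirt6 are lower.

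Of the acetyltransferases, Kat5 had the largest change. Kat5, also called Tip60, is the enzyme of the NuA4 complex and takes part in DNA repair. It measured 9.66, 10.6, 9.29, 8.97 and 9.75 FPKM in control and 6.33, 6.19, 6.31, 6.37 and 5.97 FPKM in mimic libraries. Every mimic library was lower, with a change of -0.72 on the log2 scale (SE 0.0526, edgeR adjusted p = 1.13e-08). Rnaseh2c overlaps Kat5 on the other strand, at 19.4 FPKM in control and 20.3 FPKM in mimic libraries. Kat6b fell from 0.892 ± 0.0721 to 0.745 ± 0.0489 FPKM, while its paralog Kat6a rose from 5.10 ± 0.264 to 6.12 ± 0.439 FPKM (SD, n = 5 each), with log2 fold changes of -0.35 and 0.17. Kat7, which acetylates H3 and H4 at replication origins, rose from 15.1 ± 0.701 to 19.3 ± 0.574 FPKM, changing by 0.27 on the log2 scale. Kat14, a subunit of the ATAC complex, and Kat2a, shared by ATAC and SAGA, rose by 0.21 and 0.16 on the log2 scale, and Kat2a had the highest level of the Kat genes (23.3 ± 1.19 and 27.7 ± 0.66 FPKM). Kat2b did not pass (6.14 ± 0.697 and 6.80 ± 0.365 FPKM, edgeR adjusted p = 0.489).

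Among the sirtuins, Sirt1 rose and Sirt5 and Sirt6 fell. Sirt1, a nuclear deacetylase known for restraining NF-κB, measured 3.39, 3.46, 3.35, 3.71 and 4.29 FPKM in control and 6.35, 6.04, 5.82, 6.46 and 6.04 FPKM in mimic libraries. All mimic libraries were higher, with a change of 0.67 on the log2 scale (SE 0.066, edgeR adjusted p = 3.38e-07). Sirt6, which deacetylates H3K9 at glycolytic and NF-κB target genes, measured 7.47, 7.03, 7.93, 7.24 and 8.08 FPKM in control and 5.19, 5.36, 5.66, 5.04 and 5.53 FPKM in mimic libraries. All mimic libraries were lower, with a change of -0.58 on the log2 scale (SE 0.0618, edgeR adjusted p = 7.07e-07). Sirt7, a nucleolar enzyme, rose from 5.52 ± 0.329 to 6.85 ± 0.471 FPKM. Sirt5, the mitochondrial desuccinylase, fell from 2.25 ± 0.172 to 1.44 ± 0.199 FPKM, changing by -0.73 on the log2 scale. Sirt4, also mitochondrial, did not pass (3.52 ± 0.399 and 4.10 ± 0.46 FPKM, edgeR adjusted p = 0.288). Neither did Sirt2, the cytosolic tubulin deacetylase and the sirtuin gene with the highest level (17.4 ± 1.2 and 19.4 ± 1.77 FPKM, adjusted p = 0.348).

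Some close relatives changed in opposite directions, and more changed in the same direction. Of 29 pairs of related members, both genes were called in 17, in the same direction in 12 and in opposite directions in 5. Over all tested members 41.1% were higher and 41.1% lower, so pairs of unrelated members would often differ in direction too. Some genes were in several pairs, and the number of opposite pairs was not tested. The FPKM ratio of Kdm6a to Kdm6b was 0.779 ± 0.0721 in control and 1.40 ± 0.0636 in mimic libraries, and that of Sirt6 to Sirt7 was 1.37 ± 0.0541 and 0.787 ± 0.0823 (SD, n = 5 each). The ratio of Kat6a to Kat6b was 5.76 ± 0.667 and 8.22 ± 0.429, of Kdm5a to Kdm5c 0.238 ± 0.014 and 0.298 ± 0.0152, and of Kdm7a to Kdm2a 1.01 ± 0.0604 and 0.713 ± 0.02. In all 5 pairs the ratios of the groups did not overlap. These pairs were picked because their members were called in opposite directions, so the ratios are a description.

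**Figure D4:**
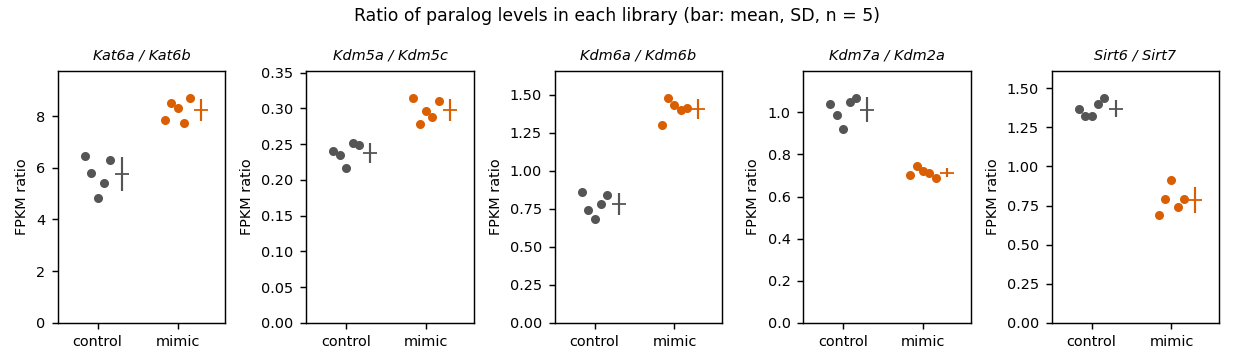
Ratio of the FPKM values of 5 pairs of related members in each library (y axis, from 0), control in grey and mimic in orange, with the mean and SD of 5 libraries. Ratios of Kat6a to Kat6b, Kdm5a to Kdm5c and Kdm6a to Kdm6b are higher in all mimic libraries, and those of Kdm7a to Kdm2a and Sirt6 to Sirt7 are lower.

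The least certain of the 46 calls were those of Kdm1a, Kdm1b, Kat8, Kmt2b, Kmt2d, Sirt3 and Kdm5a, each of which was lost under at least 1 other setting. Kdm1a, the LSD1 demethylase of the CoREST complex, was at 16.2 ± 0.566 FPKM in control and 16.2 ± 0.672 FPKM in mimic libraries, and its call (edgeR adjusted p = 0.0398) was lost when library totals replaced TMM (adjusted p = 0.748). With control replicate 2 left out its adjusted p was 0.0528, and with mimic replicate 1, 4 or 5 left out 0.0707, 0.107 and 0.0746. Kdm1b measured 4.44 ± 0.361 and 3.96 ± 0.582 FPKM (adjusted p = 0.0215), and the edgeR adjusted p was 0.057, 0.0594 and 0.0549 without mimic replicate 1, 2 or 3. Kat8, the enzyme of H4K16 acetylation, measured 4.21 ± 0.16 and 3.95 ± 0.264 FPKM (edgeR adjusted p = 0.0285). Its adjusted p was 0.0528, 0.057 and 0.0702 with control replicate 3, mimic replicate 3 or mimic replicate 4 left out. The Kmt2b call (adjusted p = 0.0327) ended when any of control replicates 1 to 4, or mimic replicate 4 or 5, was left out, and its log2 fold change was 0.085 without control replicate 1. Sirt3, a mitochondrial deacetylase, measured 1.82 ± 0.303 and 1.58 ± 0.117 FPKM (edgeR adjusted p = 0.0227), and its adjusted p was 0.05, 0.055 and 0.0506 with control replicate 5, mimic replicate 2 or mimic replicate 3 left out. The genes Psmd13 and Ric8a, of higher level, overlap Sirt3 on the other strand, and Dek overlaps Kdm1b. Kdm5a (adjusted p = 0.0109) was not called without control replicate 3 (log2 fold change 0.078, edgeR adjusted p = 0.0567). The call of Kmt2d (adjusted p = 0.0134) ended with library totals and with limma on FPKM. Genes of at least 1 FPKM on the other strand also overlap Kdm2b (Rnf34), Kdm5a (Ccdc77), Kmt2e (Srpk2), Setd1a (9430064I24Rik) and Setd7 (5031434O11Rik), so these values are uncertain to that extent.

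The promoters of the members were read from RefSeq tables on the GRCm38.p6 build, as 250 bases before to 50 after each start, for 47 members with 67 starts. The median number of CG dinucleotides was 21 per promoter, against 20 over 13396 promoters of tested genes. The GC box GGGCGG, searched on both strands, was in 61.2% of the members' promoters, against 59% of those of tested genes. The CCAAT box was in 40.3% against 38.1%, the E-box CACGTG in 7.46% against 9.88% and TATAAA in 4.48% against 7.56%. Under 5 CG dinucleotides were found in 5 promoters (7.46%, against 12.6%), all of genes called lower: both of Hdac9 and 1 each of Kdm3a, Kdm4c and Setd5. Members called lower held 33 of the 67 promoters, and their median was 24 CG, against 22 in the 19 promoters of members called higher. The other starts of Kdm3a had 40 and 24 CG, and that of Kdm4c had 28. The promoters of the member with the largest fall and of the one with the largest rise are shown with each CG in capitals. Those of Hdac9 lie on the minus strand at chr12:34528840-34529139, with 3 CG, and at chr12:34917046-34917345, with 0, and that of Setd1a on the plus strand at chr7:127777139-127777438, with 35.
Hdac9 inner start: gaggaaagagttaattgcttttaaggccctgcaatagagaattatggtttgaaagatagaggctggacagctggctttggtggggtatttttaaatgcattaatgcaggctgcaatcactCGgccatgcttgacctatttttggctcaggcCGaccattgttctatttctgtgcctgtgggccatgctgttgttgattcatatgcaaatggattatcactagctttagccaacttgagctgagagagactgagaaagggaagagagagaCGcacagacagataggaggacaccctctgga
Hdac9 outer start: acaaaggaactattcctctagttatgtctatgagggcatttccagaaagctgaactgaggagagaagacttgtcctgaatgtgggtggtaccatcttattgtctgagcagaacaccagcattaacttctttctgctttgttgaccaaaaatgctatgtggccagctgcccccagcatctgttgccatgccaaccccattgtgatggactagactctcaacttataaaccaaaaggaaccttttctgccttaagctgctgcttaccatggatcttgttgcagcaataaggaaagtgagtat
Setd1a: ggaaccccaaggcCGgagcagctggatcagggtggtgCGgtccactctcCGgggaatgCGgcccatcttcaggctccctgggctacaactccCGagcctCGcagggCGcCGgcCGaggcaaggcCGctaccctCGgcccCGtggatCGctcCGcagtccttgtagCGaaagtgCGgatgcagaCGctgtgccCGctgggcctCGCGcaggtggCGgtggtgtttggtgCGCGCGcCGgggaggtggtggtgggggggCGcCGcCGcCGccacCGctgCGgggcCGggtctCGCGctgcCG
A letter count describes these windows only.

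Partners of the enzymes were read from lists not defined by the name prefixes, against the 31.7% of all genes called higher, the 31.5% called lower and the 72.2% called either way among genes at 1 FPKM or more. Differences between the lists were not tested. Of 11 subunits of PRC2, the complex that methylates H3K27, 8 rose and 2 fell (median log2 fold change 0.41). Its catalytic subunit Ezh2 rose from 8.25 ± 0.476 to 13.2 ± 0.726 FPKM and Suz12 from 33.4 ± 2.62 to 47.7 ± 2.38 FPKM (SD, n = 5 each). The histone chaperone Rbbp4 and the accessory subunit Mtf2 rose by 0.41 and 0.57 on the log2 scale. Of 12 COMPASS subunits 8 rose and 1 fell (75% called, median 0.22). Among them Wdr82, a subunit of the Setd1a and Setd1b complexes, rose from 13.9 ± 0.406 to 18.8 ± 0.377 FPKM. Of 18 PRC1 subunits 9 rose and 4 fell (median 0.13), which at 72.2% called is at the background, and Cbx6 rose from 7.23 ± 0.219 to 14.5 ± 0.218 FPKM. Other histone methyltransferases were near the background too, at 70.6% called: 9 of 17 rose and 3 fell (median 0.14), with Prdm2 and Nsd2 higher by 0.67 and 0.44 on the log2 scale and Ehmt2 (G9a) lower by a log2 fold change of -0.29. Arginine methyltransferases split, 3 higher and 5 lower of 8 (median -0.18), with Prmt1 lower at 32.1 ± 0.931 against 39.6 ± 1.11 FPKM. Of 6 tested demethylases outside the Kdm names 3 fell and none rose (Jmjd6, Phf8 and Jmjd1c, median -0.18 over the 6).

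Of 9 other acetyltransferases 6 rose and 2 fell (median 0.22), including Crebbp, from 3.84 ± 0.196 to 5.41 ± 0.297 FPKM, and its paralog Ep300, from 10.1 ± 0.205 to 12.7 ± 0.516 FPKM. Of 33 acetyltransferase complex subunits 17 rose and 8 fell (75.8% called, median 0.14), with Jade3 at a log2 fold change of 1.32 and Ruvbl2 at -0.69. Of 25 deacetylase corepressor subunits 12 rose and 8 fell (median 0.092). The falls included Sap30 of the Sin3 complex, from 189 ± 4.54 to 70.9 ± 3.11 FPKM, and Chd3 of NuRD, from 24.4 ± 0.484 to 10.6 ± 0.551 FPKM. Of 15 readers of acetylated lysine 9 rose and 5 fell (median 0.18), and Brd2 rose from 25.3 ± 1.1 to 62.4 ± 2.75 FPKM. DNA methylation enzymes split, 5 higher and 4 lower of 11 (median 0.19). Dnmt3a, a de novo methyltransferase, fell from 9.58 ± 0.269 to 6.12 ± 0.39 FPKM, and Uhrf1, which guides maintenance methylation in dividing cells, rose from 20.1 ± 1.62 to 36.2 ± 1.49 FPKM.

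Of 19 tested enzymes that make, consume or clear the cofactors of these reactions and their by-products, 12 fell and 4 rose (63.2% lower, median -0.18). Cd38, Parp1 and Parp2, which consume NAD, are among those that fell. Nampt, the rate-limiting enzyme of NAD salvage, fell from 59.1 ± 2.35 to 38.2 ± 1.34 FPKM, and Cd38 from 9.82 ± 1.04 to 2.85 ± 0.18 FPKM (SD, n = 5 each). Idh1, which makes the 2-oxoglutarate that most demethylases use, fell from 55.2 ± 1.22 to 28.6 ± 0.69 FPKM. Mat2a, which makes the methyl donor S-adenosylmethionine, rose from 26.8 ± 1.55 to 60.2 ± 2.37 FPKM, a change of 1.08 on the log2 scale (SE 0.0385, edgeR adjusted p = 3.88e-12).

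**Figure D5:**
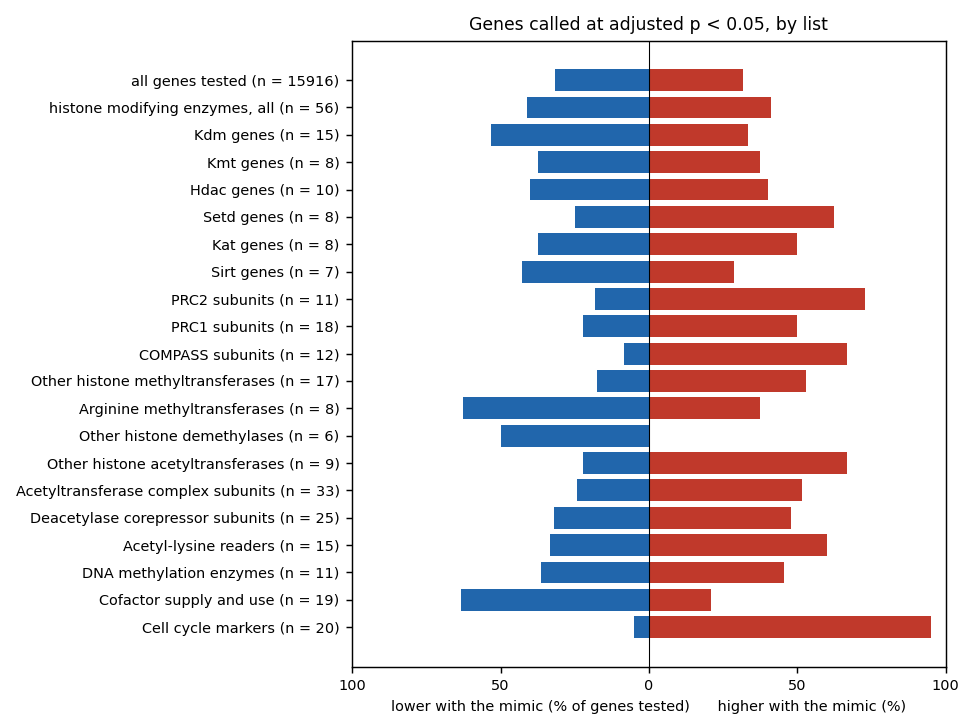
Share of tested genes called higher (red, to the right) and lower (blue, to the left) with the mimic, in percent, for all genes, for the members by prefix and for the other lists, with the number tested in brackets. Over all genes 31.7% were higher and 31.5% lower, and over all members 41.1% each.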

How the data were processed

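RNA of 10 libraries was compared, 5 with a control mimic and 5 with the miR-378a-3p mimic, grouped by the treatment label. For every gene the authors deposited expected counts and FPKM, named so in the headers. The tools that the submitters' processing notes list are edgeR, DESeq2, StringTie 2.1.6, HISAT2 2.2.1 and cutadapt 1.9, with build GRCm39; which of them did what, the annotation and whether counting used strand are not stated there. Coordinates match GRCm38: 90.8% of 28163 genes shared with GENCODE M21, a GRCm38 annotation, had the same start, end and strand, so coordinates are given as GRCm38. All 20 value columns matched a library. Counts, deposited as whole numbers, piled up at 4 and 8 (933.5 and 406.2 genes per library, against 485.6 at 3 and 274.9 at 7). For this reason 1 read pair was taken as about 4 counts. Counts of 1 and 2 were common too (807.0 and 656.3 genes per library), so this factor is approximate. Intervals and floors cover counting error only.

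After filterByExpr and TMM scaling, all remaining genes were fitted with edgeR 4.0.16 in R 4.3.3 (glmQLFit and glmQLFTest, without covariates). A call needed an adjusted p (Benjamini-Hochberg, over all genes) under 0.05; fold changes are mimic over control, and an SE is the log2 fold change divided by the square root of F. Levels are FPKM, whose scaling sets the mimic libraries somewhat higher than TMM does. The alternatives were limma 3.58.1 on log2(FPKM + 1) or a pseudocount of 0.1, DESeq2 1.42.0, other scalings and filters, counts divided by 4, leaving out each library in turn and a replicate block. The scripts were tested on simulated data. Members and lists were chosen with earlier results of these data known. Named members are the up to 3 largest changes per prefix and direction without overlap and with a mean of at least 1 FPKM, the highest level per prefix and oppositely called pairs, 38 in all; the other members were named to account for all of them, and up to 4 genes with the smallest p from other lists.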

Additional observations from a re-analysis of the deposited data

Results flagged for a closer look

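In 3 of 76 groups of 5 libraries, over the 38 members named by rule, 1 library lay far from the others, measured as its gap to the nearest library over the range of the group. Chance gives this in about 1 in 20 groups. Hdac6 was at 5.22 FPKM in mimic replicate 3, against 6.06 to 6.19 FPKM in the other mimic libraries. Kat6a was at 5.37 FPKM in mimic replicate 1, against 6.21 to 6.52 FPKM. Setd1a was at 14.5 FPKM in mimic replicate 1, against 15.7 to 16.1 FPKM. All 3 genes were called higher, and the low library lay above every control library in each.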

How the results depend on the processing

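The 14 counts of members called higher or lower, in all and by prefix, stayed within 1.5 times their value under all 19 alternatives. Leaving out each library gave 21 to 24 members higher and 20 to 23 lower. The replicate numbers did not pair the libraries (correlations of same-numbered libraries of -0.009 to 0.062); a replicate block gave 23 higher and 21 lower. Of the 46 calls 39 were kept under every alternative that tested them and 0 changed sign; Hdac7 and Kat6b, under 1 FPKM, were tested in 18 of the alternatives, since 1 kept only genes of at least 1 FPKM. The median log2 fold change of the members, 0.003, was 0.080 with library totals, 0.074 with limma on log2(FPKM + 1) and 0.094 with a pseudocount of 0.1, as the median of all genes moved to 0.075, 0.044 and 0.080; it ranged from -0.032 (without control replicate 3) to 0.018 with a library left out. With library totals, and with limma on either pseudocount, 18 members were lower in place of 23 and 25, 24 and 24 higher. Of the 10 uncalled members 3 were called under some alternative, namely Hdac2, Kdm4a and Sirt2. Hdac2 was called higher with library totals (edgeR adjusted p = 0.00618) and with limma on either pseudocount (limma adjusted p = 0.00892 and 0.0135). Sirt2 was called higher with library totals (edgeR adjusted p = 0.0473). Kdm4a was called lower in the settings given above. Signs changed only in members that were not called. With library totals, limma on log2(FPKM + 1) and limma on log2(FPKM + 0.1), the log2 fold change of Kdm3b was 0.017, 0.026 and 0.031, of Kmt2a 0.072, 0.072 and 0.085, of Kmt5a 0.057, 0.068 and 0.071 and of Setd4 0.021, 0.021 and 0.032. That of Kdm4a was 0.010 and 0.011 with limma, and that of Hdac8 was -0.006 among genes at 1 FPKM or more. With a library left out, Hdac8 ran from -0.065 to 0.041, Kat2b from -0.019 to 0.094, Kmt2a from -0.046 to 0.016 and Kmt5a from -0.054 to 0.003; the cause was not tested. Members of under 1 FPKM, Hdac7 and Kat6b, rest on the fewest read pairs for their length.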
